A study of Mus musculus with 5 samples.

Results

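Hemoglobin and its companion genes were followed in 5 single-cell RNA-seq libraries of mouse lung. The members are the 4 adult globin genes Hbb-bs, Hbb-bt, Hba-a1 and Hba-a2, the heme synthesis gene Alas2 and the red cell enzyme gene Bpgm. They were chosen by exact symbol, and all 6 of 6 were found among 42454 features. All mice were C57BL/6J, and the groups differ in exposure, age and sorting. Newborns under 12 h of age were kept with their mothers in room air or in hyperoxia at over 95% O2 for 3 days, with the dams exchanged daily between the litters, and then lived in room air until pnd7 or pnd60. Unsorted lung cells of air-exposed and of hyperoxia-exposed mice gave 1 library each at both ages, and the number of mice behind these 4 libraries is not given in the sources used here. The fifth library came from the hyperoxia group at pnd7, with the lungs of 3 mice pooled and sorted by flow cytometry for C12FDG, a substrate that fluoresces once β-galactosidase has cleaved it. The paper describes the unsorted data as published earlier and reused as controls, while the sorted library was made for it. Whether red blood cells were lysed before the cells were loaded is not given in the sources used here.

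Hemoglobin is a tetramer of alpha-globin and beta-globin chains, each holding a heme, and red cell precursors make it in very large amounts. In the mouse, embryonic globins are replaced by the adult ones before birth. Young red cells leave the bone marrow as reticulocytes, which have lost their nucleus but still hold globin mRNA, and they lose that mRNA as they mature in the blood. Alas2 encodes the erythroid form of the enzyme that starts heme synthesis, and Bpgm encodes the enzyme that makes 2,3-bisphosphoglycerate, which lowers the oxygen affinity of hemoglobin.

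The upstream sequences are shown because the globin genes share 4 short motifs there, of which Alas2 holds all but CCAAT and Bpgm holds CCAAT alone. They are the 250 bases before the annotated start of each gene, read 5′ to 3′ along the gene from the RefSeq table of GRCm38.p6, the assembly that mm10 names, and all 6 members were matched by symbol. Capitals mark, on either strand, the CCAAT box, the motif CACCC that erythroid Krüppel-like factors can bind, the GATA motif written GATAA, and the TATA box written TATAA. Hbb-bs lies on the minus strand of chromosome 7 at chr7:103826523-103827928, with its upstream window at chr7:103827929-103828178. Hbb-bt lies on the same strand at chr7:103812524-103813923, with the window at chr7:103813924-103814173. Hba-a1 lies on the plus strand at chr11:32283672-32284486, with the window at chr11:32283422-32283671. Alas2 lies on the plus strand at chrX:150547417-150570622, with the window at chrX:150547167-150547416, and Bpgm on the plus strand at chr6:34476356-34505136, with the window at chr6:34476106-34476355.
Hbb-bs: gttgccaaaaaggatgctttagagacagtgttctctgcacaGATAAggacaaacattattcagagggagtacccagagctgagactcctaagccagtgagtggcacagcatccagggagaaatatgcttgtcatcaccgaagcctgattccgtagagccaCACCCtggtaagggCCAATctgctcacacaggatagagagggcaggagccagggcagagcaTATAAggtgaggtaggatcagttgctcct
Hbb-bt: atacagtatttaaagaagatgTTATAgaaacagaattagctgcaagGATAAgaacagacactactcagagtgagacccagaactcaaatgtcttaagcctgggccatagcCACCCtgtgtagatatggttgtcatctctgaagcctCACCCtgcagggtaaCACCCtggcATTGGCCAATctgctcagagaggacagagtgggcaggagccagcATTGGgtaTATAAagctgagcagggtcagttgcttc
Hba-a1: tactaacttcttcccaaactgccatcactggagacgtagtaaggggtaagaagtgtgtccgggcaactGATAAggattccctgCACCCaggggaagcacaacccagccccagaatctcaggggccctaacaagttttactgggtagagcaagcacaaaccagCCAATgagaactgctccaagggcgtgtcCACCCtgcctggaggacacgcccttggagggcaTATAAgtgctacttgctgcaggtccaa
Alas2: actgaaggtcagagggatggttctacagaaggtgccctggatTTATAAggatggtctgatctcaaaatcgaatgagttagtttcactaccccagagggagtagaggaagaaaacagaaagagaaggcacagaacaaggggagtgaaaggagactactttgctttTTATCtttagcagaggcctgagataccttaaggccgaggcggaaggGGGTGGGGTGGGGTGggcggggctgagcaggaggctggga
Bpgm: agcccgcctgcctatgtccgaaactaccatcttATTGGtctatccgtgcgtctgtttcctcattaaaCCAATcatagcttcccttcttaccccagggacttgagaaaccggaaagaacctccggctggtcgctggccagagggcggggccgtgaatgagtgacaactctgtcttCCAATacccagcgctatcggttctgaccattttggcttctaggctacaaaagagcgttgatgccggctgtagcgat

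All 4 globin windows held each of the 4 motifs, which was the case in 318 of 32851 windows of this length (0.968%). The windows are shown because the globin genes share these motifs, so this share is a description and not a test. Counting positions back from the start, with the first base of the motif given, CCAAT stood at -76 in Hbb-bs, -75 in Hbb-bt and -88 in Hba-a1, and TATAA at -29, -28 and -27. The window of Hba-a2, at chr11:32296242-32296491, shares an unbroken run of 247 bases with that of Hba-a1 and is not printed. Alas2 held GATAA on the opposite strand at -86, CACCC on the opposite strand at -40, -35 and -30, and no CCAAT. Bpgm held CCAAT at -183 and -76, and at -217 on the opposite strand, and none of the other 3 motifs. Taken alone, CCAAT was found in 33.8% of all windows, CACCC in 52.0%, GATAA in 22.6% and TATAA in 22.8%. Matches can overlap, as TATAA and its reverse complement do in Alas2. A match is a description of the letters and not a binding site.

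The deposited values are molecule counts per gene and barcode. The libraries held 29873688 counts in 4243 barcodes for air at pnd7, 26295355 in 2664 for hyperoxia at pnd7, 8006284 in 569 for the sorted cells, 15906723 in 5128 for air at pnd60 and 18320487 in 5632 for hyperoxia at pnd60. Levels are given as CPM (a share of the counts summed, where 10000 CPM are 1%), in all barcodes and in those with over 700 and under 8000 genes, which number 2314, 1249, 503, 4397 and 4756 in the same order and are called filtered barcodes here. Between 0 and 7 barcode sequences were shared by any pair of libraries. Each condition had 1 library, so there is no spread between mice and no test, and the intervals, all at 95%, cover counting error only. The sorted library and the air library at pnd7 stand apart from the others in how globin was spread over barcodes, and their values are given separately below.

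The 4 globin genes together took 39.2% of all counts in air at pnd7, 37.6% in hyperoxia at pnd7, 3.31% in air at pnd60, 1.26% in hyperoxia at pnd60 and 0.644% in the sorted cells. The order of the libraries was the same for each of the 4 genes, and neighbours in it differed beyond counting error. In filtered barcodes the shares were 3.38%, 2.22%, 0.296%, 0.117% and 0.0013%, in the same order. The limit on genes thus removed most of the globin in every library, and what it left kept the order of the libraries.

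**Figure D1:**
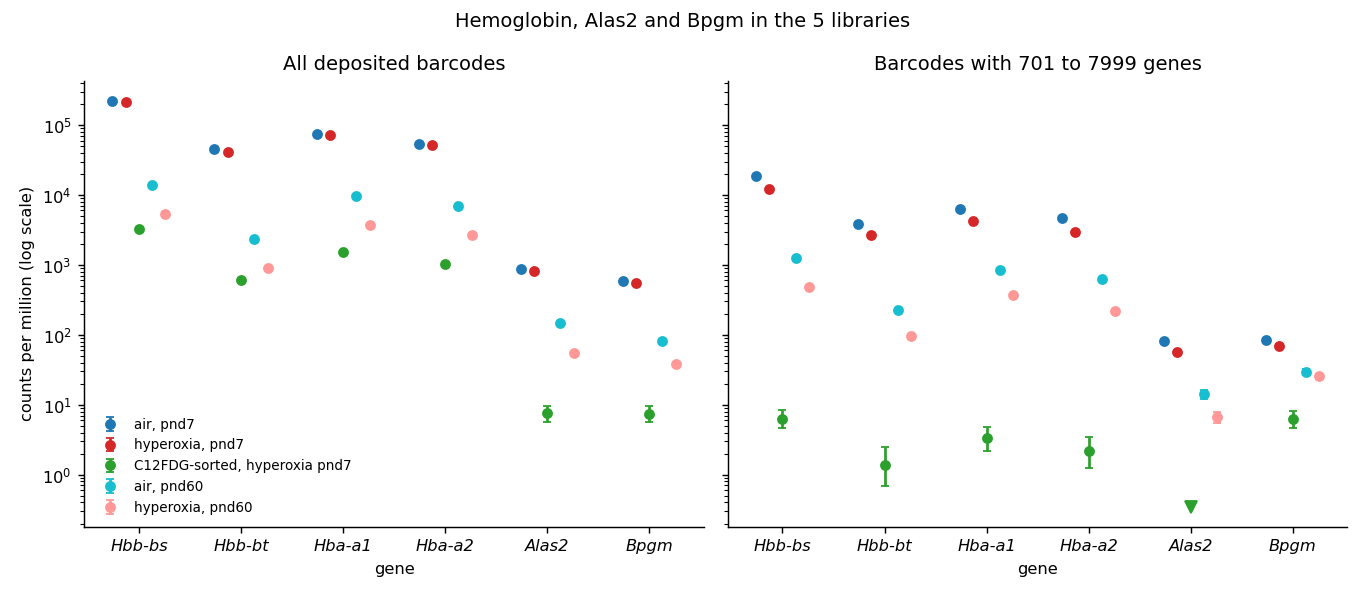
CPM (log scale) of the 6 genes in all barcodes (left) and in barcodes with over 700 and under 8000 genes (right), with 1 point for each library and exact Poisson intervals at 95%, most of them smaller than the points. Each globin gene stands highest in the unsorted pnd7 libraries and lowest in the sorted cells, and the triangle marks Alas2, with 0 counts in the filtered sorted cells.

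Nearly all globin sat in barcodes that held little else. Barcodes with over 50% of their counts from the 4 genes, called globin-dominated here, numbered 1215 of 4243 in air at pnd7 (28.6%), 1016 of 2664 in hyperoxia at pnd7 (38.1%), 6 of 569 in the sorted cells (1.05%, exact binomial interval from 0.388 to 2.28), 242 of 5128 in air at pnd60 (4.72%, from 4.15 to 5.34) and 111 of 5632 in hyperoxia at pnd60 (1.97%, from 1.62 to 2.37). These barcodes held 95.5%, 98.6%, 99.8%, 95.5% and 93.7% of the globin counts of their libraries. They were poor in genes, with medians of 105, 99, 65.5, 119 and 100 genes, and all but 13, 17, 0, 8 and 2 of them had at most 700 genes. Those few were filtered barcodes, and values without barcodes rich in globin are given beside the comparisons.

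Globin counts per globin-dominated barcode differed more between the ages than between the exposures. The median was 9387 in air and 9984 in hyperoxia at pnd7, against 2219.5 in air and 1944 in hyperoxia at pnd60. The middle 90% of barcodes ran from 4182 to 13136 in air at pnd7 and from 595.5 to 3310 in air at pnd60, which did not overlap. In hyperoxia it ran from 3540 to 14911 at pnd7 and from 557 to 3575.5 at pnd60, which overlapped at the edge. The other barcodes of the same libraries had medians of 2505.5, 4159, 1971.5 and 2052 counts, and the part of sequencing depth in the difference was not tested. At pnd60, fewer globin-dominated barcodes after hyperoxia went with the lower globin share, while the counts in each were close to those in air.

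**Figure D2:**
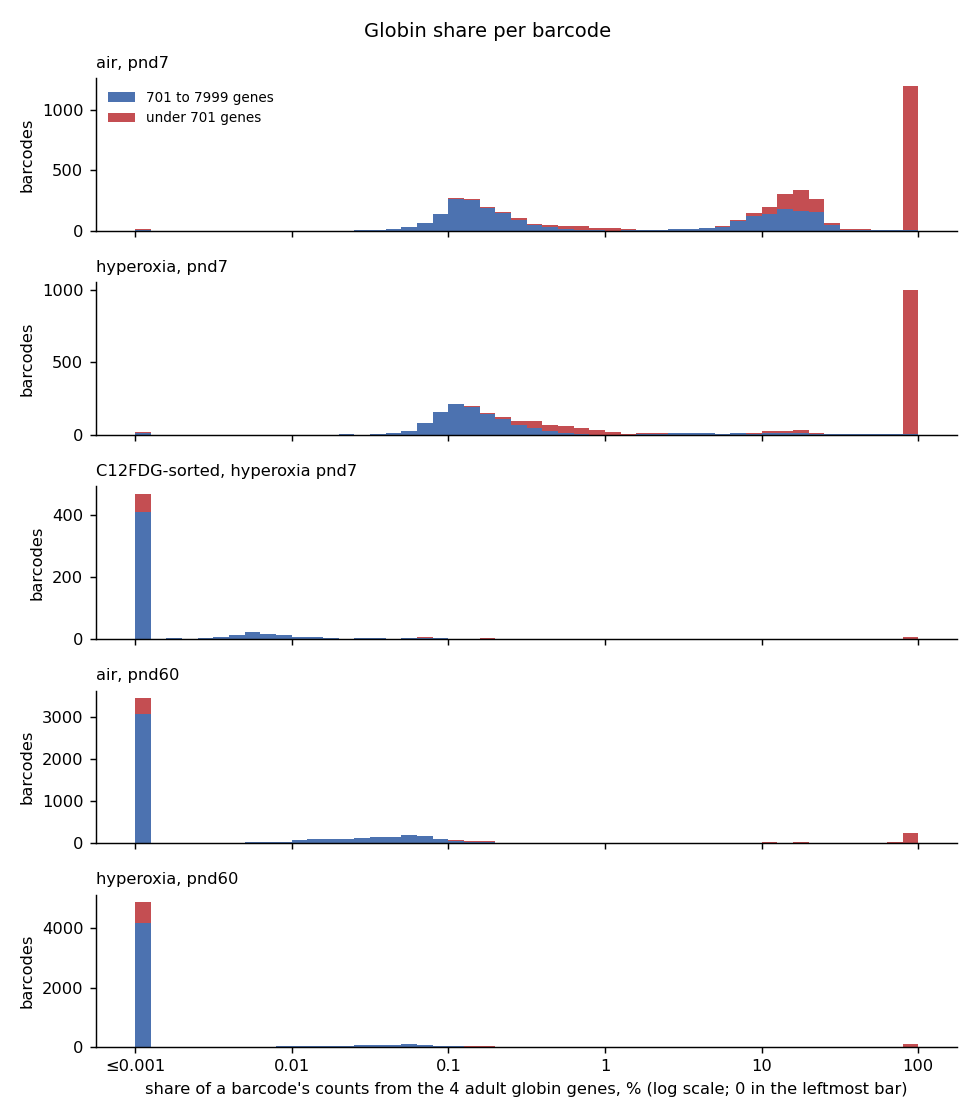
Number of barcodes by the share of their counts from the 4 globin genes (log scale; barcodes at 0 in the leftmost bar) in each library, split by the number of genes detected. Globin-dominated barcodes form the bar at the right edge, nearly all with at most 700 genes, and the air library at pnd7 alone shows a large group between 10% and 50%, with 1192 barcodes.

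Between the globin-dominated barcodes and the rest, the air library at pnd7 held a group that was small in the other libraries. Of its filtered barcodes, 710 of 2314 (30.7%) had between 10% and 50% globin, against 52 of 1249 (4.16%) in hyperoxia at pnd7, 12 of 4397 (0.273%) in air at pnd60, 8 of 4756 (0.168%) in hyperoxia at pnd60 and 0 of 503 in the sorted cells, which allows a share of up to 0.596%. In air at pnd7 these barcodes had a median of 1911.5 counts, of which 327.5 were globin, while the other filtered barcodes had a median of 7002 counts and 15 globin counts. They carried 66.9% of the filtered globin of that library. Their ratio of beta-globin to alpha-globin counts was 1.98 (from 1.97 to 2.00), close to the 2.07 of the globin-dominated barcodes, and Hbb-bt was 17.1% of their beta-globin against 17.2%. The group moved with low depth. Values without barcodes over 10% globin are given below, but this limit does not remove all low-depth barcodes with raised globin. A further 294 filtered barcodes (12.7%) of the air library at pnd7 held over 1% and up to 10% globin, against 72 (5.76%) in hyperoxia at pnd7. In air these had medians of 2105 counts and 147 globin counts, and they stay in the values below. Whether they belong to the same group was not tested.

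Of the globin genes, the 2 beta-globin genes differed most between the ages. Hbb-bs, the major adult beta-globin gene of this strain, had 218580 CPM in air and 211509 in hyperoxia at pnd7, 14044 in air and 5379 in hyperoxia at pnd60, and 3275 in the sorted cells. Hbb-bt, the neighbouring adult beta-globin gene on chromosome 7, had 45378 and 41653 CPM at pnd7, 2320 and 900.5 at pnd60, and 606 in the sorted cells. Both were close between the exposures at pnd7 and far lower at pnd60, in air by 15.6-fold for Hbb-bs and 19.6-fold for Hbb-bt. After hyperoxia the difference between the ages was 39.3-fold and 46.3-fold.

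The alpha-globin genes differed less between the ages than the beta-globin genes. Hba-a1 had 74335 CPM in air and 71740 in hyperoxia at pnd7, 9646 and 3724 at pnd60, and 1518 in the sorted cells. Hba-a2 had 53253 and 51040 CPM at pnd7, 7057 and 2635 at pnd60, and 1040 in the sorted cells. In air they were 7.71-fold and 7.55-fold lower at pnd60 than at pnd7, and after hyperoxia 19.3-fold and 19.4-fold lower. Their transcripts in GENCODE vM21 share an unbroken run of 415 bases and those of the beta-globin genes one of 430 bases. In the last 300 bases of Hba-a1 and of Hbb-bs, the longest shared runs were 177 and 141 bases, against reads of 150 bases. How reads were assigned within each pair is therefore uncertain, more so for alpha-globin by this measure. Reads that match both genes of a pair may also be missing from its sum, which was not tested. Hba-a2 was between 40.7% and 42.2% of the alpha-globin counts in each of the 5 libraries.

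The balance of the chains therefore differed between the ages. Beta-globin counts were 2.07 times alpha-globin counts in air and 2.06 times in hyperoxia at pnd7, against 0.98 times in air and 0.988 times in hyperoxia at pnd60. The log2 difference between the ages was -1.08 (from -1.09 to -1.07) in air and -1.06 (from -1.07 to -1.05) in hyperoxia. Between the exposures it was -0.0048 at pnd7 and 0.012 at pnd60, with an interval that includes 0 at pnd60 (from -0.0026 to 0.026), though not in globin-dominated barcodes alone (0.015, from 0.00017 to 0.029). In the sorted cells the ratio was 1.52, from 1.49 to 1.54, and rested on 6 barcodes. These are ratios of counts from 3′ ends and not of chains made. Reads shared within a pair may bear on them, and their part was not tested.

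Within a library the balance also went with the amount of globin. In air at pnd7, the ratio of beta-globin to alpha-globin was 1.32 in the 49 globin-dominated barcodes with 2000 to under 4000 globin counts, 1.89 in the 323 with 4000 to under 8000 and 2.14 in the 829 with 8000 to under 16000. In air at pnd60 it was 0.743 in the 38 barcodes with 500 to under 1000 globin counts, 0.92 in the 62 with 1000 to under 2000 and 1.02 in the 133 with 2000 to under 4000. Both libraries thus had relatively more beta-globin where a barcode held more globin. At the same 2000 to under 4000 counts, which is the low end at pnd7 and the high end at pnd60, the ratio was 1.32 in air and 1.37 in hyperoxia at pnd7, and 1.02 in air and 1.04 in hyperoxia at pnd60. The difference between the ages was smaller there and kept its direction.

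Hbb-bt went with the amount of globin more steeply than the balance did. It was 6.68%, 9.67% and 19.0% of beta-globin counts in the 3 rising classes of air at pnd7, and 3.08%, 8.82% and 18.0% in those of hyperoxia at pnd7. In air at pnd60 it was 3.81%, 10.1% and 16.0%, and in hyperoxia at pnd60 6.42%, 11.1% and 15.8%. Over all globin-dominated barcodes, Hbb-bt was 17.2% and 16.5% of beta-globin at pnd7 and 14.2% in both libraries at pnd60. At 2000 to under 4000 globin counts the order of the ages turned, with 6.68% and 3.08% at pnd7 against 16.0% and 15.8% at pnd60. Barcodes are not replicates, and these values describe the libraries.

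**Figure D3:**
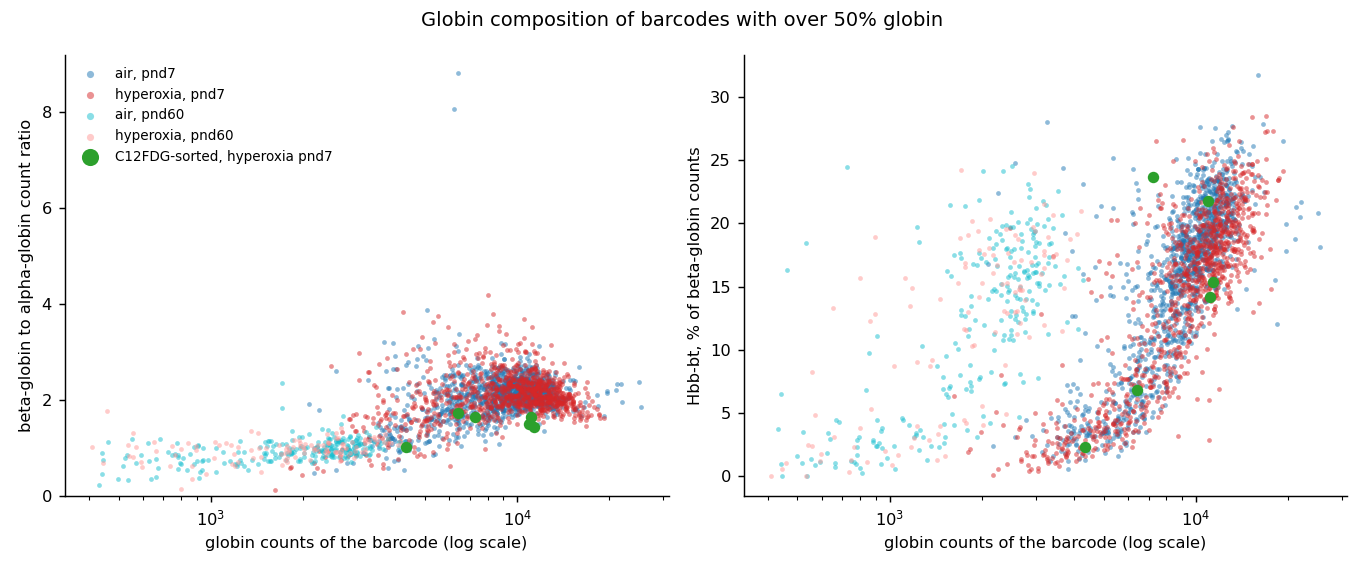
Ratio of beta-globin to alpha-globin counts (left) and Hbb-bt as a percent of beta-globin counts (right) against globin counts (log scale), with 1 point for each globin-dominated barcode. The pnd7 barcodes sit around 2.07 and the pnd60 barcodes around 0.98 on the left, and on the right the Hbb-bt share climbs with globin counts within each age, at lower counts for pnd60.

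Embryonic globin was close to absent. Hbb-bh1, Hbb-bh2 and Hba-x, globin genes of the embryo, had 0 counts in all 5 libraries, which allows up to 2.6e-05% of the globin counts in air at pnd7 and 0.0058% in the sorted cells. Hbb-y, the main embryonic beta-like gene, had 6, 11, 0, 1 and 3 counts in air at pnd7, hyperoxia at pnd7, the sorted cells, air at pnd60 and hyperoxia at pnd60, mostly outside globin-dominated barcodes, which held 2, 1, 0, 0 and 0 of them. The theta-globin genes Hbq1a and Hbq1b had 214 and 165 counts in air at pnd7, 151 and 181 in hyperoxia at pnd7, and at most 13 in any other library.

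Alas2 followed globin and, per globin count, was more abundant at pnd60. It had 862 CPM in air and 814 in hyperoxia at pnd7, 146 and 55.5 at pnd60, and 7.49 in the sorted cells. Per 10000 globin counts this is 22.0 (from 21.7 to 22.3) in air and 21.7 (from 21.4 to 21.9) in hyperoxia at pnd7, 44.2 (from 42.4 to 46.0) in air and 43.9 (from 41.2 to 46.7) in hyperoxia at pnd60, and 11.6 (60 counts) in the sorted cells. The intervals of the exposures overlapped at both ages, and those of the ages did not. At 2000 to under 4000 globin counts the ratio was 15.8 and 16.5 at pnd7 against 46.1 and 44.3 at pnd60. Among the counts other than globin in globin-dominated barcodes, Alas2 took 55032 CPM in air and 52957 in hyperoxia at pnd7. At pnd60 it took 39911 in air and 44052 in hyperoxia, so the direction between the ages depended on what Alas2 was divided by. Globin-dominated barcodes held 95.2%, 98.3%, 95.4% and 91.6% of the Alas2 counts of the 4 unsorted libraries.

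Bpgm followed globin at pnd7 and less so at pnd60. It had 596 CPM in air and 559 in hyperoxia at pnd7, 82.4 and 38.1 at pnd60, and 7.37 in the sorted cells. Globin-dominated barcodes held 92.2% and 94.7% of its counts at pnd7, but 69.5% in air and 36.0% in hyperoxia at pnd60. Within those barcodes it stood at 14.7 and 14.3 counts per 10000 globin counts at pnd7, and at 18.1 and 11.6 at pnd60. Like the Hbb-bt share it went with the amount of globin, with 4.44 (from 3.51 to 5.55) at 2000 to under 4000 globin counts, 5.25 (from 4.94 to 5.58) at 4000 to under 8000 and 17.03 (from 16.8 to 17.3) at 8000 to under 16000 in air at pnd7, and with 3.11 at 500 to under 1000, 8.27 at 1000 to under 2000 and 21.7 at 2000 to under 4000 in air at pnd60. The first 2 classes at pnd7 overlapped in their intervals, and the third stood above both.

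For hyperoxia against air at pnd7, the members were nearly level in all barcodes. The log2 ratios were -0.05 for Hbb-bs, -0.12 for Hbb-bt, -0.05 for Hba-a1, -0.06 for Hba-a2, -0.08 for Alas2 and -0.09 for Bpgm, and 0 of 6 members differed by at least 2-fold. Of 12954 genes with at least 100 counts in the pair, 0.270% were higher and 0.757% lower by as much. In filtered barcodes the 4 globin genes together were 1.52-fold lower in hyperoxia, a log2 ratio of -0.61 (from -0.61 to -0.60), with Alas2 at -0.50 and Bpgm at -0.27, and again 0 of 6 reached 2-fold (0.183% of 12595 genes were higher and 0.802% lower). Without the filtered barcodes over 50% globin the globin ratio was -1.55, and leaving out those over 10% gave -1.29 and Bpgm at 0.01 (from -0.16 to 0.19). The ratio without barcodes over 10% still includes 294 air barcodes with over 1% and up to 10% globin, against 72 in hyperoxia. The filtered difference in globin thus depended on how barcodes were chosen. Of these 2 choices, leaving out the 13 air and 17 hyperoxia barcodes over 50% globin moved the ratio most. Leaving out those at 10% to 50% as well moved it partly back.

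For hyperoxia against air at pnd60, all members were lower after hyperoxia. In all barcodes the 4 globin genes were 2.62-fold lower, a log2 ratio of -1.39 (from -1.39 to -1.38), and the single ratios were -1.38 for Hbb-bs, -1.37 for Hbb-bt, -1.37 for Hba-a1, -1.42 for Hba-a2, -1.40 for Alas2 and -1.11 for Bpgm. So 6 of 6 members were lower by at least 2-fold, against 0.206% of 13132 genes, and 0 were higher, against 0.411%. In filtered barcodes the globin ratio was -1.33 (from -1.36 to -1.31), Alas2 stood at -1.10 and Bpgm at -0.22 (from -0.41 to -0.02), so that 5 of 6 members passed 2-fold (0.248% of 12928 genes were lower and 0.271% higher). Of the filtered barcodes, 20 of 4397 in air and 10 of 4756 in hyperoxia had over 10% globin. The rest held 3734 of the 43607 filtered globin counts in air and 1491 of 19388 in hyperoxia. Without barcodes over 50% globin the globin ratio was -0.68. With those over 10% left out as well it was -1.49, and Bpgm stood at -0.05 (from -0.26 to 0.16), within counting error. The blood held by each suspension was not measured, and its part was not tested.

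For pnd60 against pnd7, the members were lower at pnd60 in both exposures. The 4 globin genes were 11.8-fold lower in air, a log2 ratio of -3.57, and 29.7-fold lower after hyperoxia, at -4.89. Alas2 stood at -2.56 and -3.88, and Bpgm at -2.86 and -3.88. All 6 members were lower by at least 2-fold in each, against 4.77% of 13199 genes in air and 5.01% of 13303 in hyperoxia, while 42.7% and 46.1% of genes were higher, with the median gene at 0.86 and 0.92. Relative to the median gene, globin was at -4.43 in air and -5.82 in hyperoxia. In filtered barcodes globin stood at -3.51 and -4.24, Alas2 at -2.51 and -3.10 and Bpgm at -1.51 and -1.46, so that 6 of 6 members were again lower (9.34% of 13003 genes in air and 9.47% of 12924 in hyperoxia were lower, and 15.1% and 19.1% higher). Each mean of per-barcode shares in filtered barcodes gave a larger difference, -5.02 in air and -4.64 in hyperoxia. These comparisons use the same libraries as those between the exposures and are not independent of them.

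For sorted against unsorted cells of the hyperoxia group at pnd7, the members were far lower in the sorted cells. The 4 globin genes were 58.4-fold lower in all barcodes, a log2 ratio of -5.87 (from -5.88 to -5.85), with Alas2 at -6.76 and Bpgm at -6.25, and all 6 members were lower by at least 2-fold (26.2% of 11743 genes were lower and 18.2% higher). In filtered barcodes the sorted cells held 104 globin counts among 7903164, a log2 ratio of -10.72 (from -11.01 to -10.44), which was -9.45 without barcodes over 50% globin and -7.16 without those over 10%. Alas2 had 0 counts there and 770 in the unsorted cells, at least 149-fold lower with a floor of 3 counts in the sorted library. Bpgm had 49 counts there, beside 50 of Hbb-bs, and its log2 ratio was -3.49 (from -3.93 to -3.07). All 6 members were again lower by at least 2-fold (36.4% of 11345 genes were lower and 8.18% higher). The unsorted library came from an earlier published dataset. Sort, depth, cell types and separate preparation cannot be told apart in this pair of libraries.

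Globin counts were found in nearly every filtered barcode at pnd7. At least 1 count of the 4 genes was present in 99.8% of filtered barcodes in air and 99.2% in hyperoxia at pnd7, with median depths of 3913.5 and 7113 counts. It was present in 18.7% of the sorted barcodes (median 15420), 30.1% in air at pnd60 (median 2168) and 11.9% in hyperoxia at pnd60 (median 2315.5). With each barcode thinned to 1000 counts, leaving out 4, 1, 0, 37 and 46 shallower ones, these shares became 86.8%, 79.8%, 2.78%, 14.0% and 4.76%. Barcodes free of globin were thus few at pnd7 in the unsorted libraries and frequent in the other 3.

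To see which cells carried it, filtered barcodes were clustered in each library without the erythroid genes, and 19 classes of marker genes were used to name the clusters. These names were rebuilt here and may differ from those of the study. No cluster was named erythroid-like. Ranges over classes cover named classes of at least 50 barcodes. In hyperoxia at pnd7, the median share of globin per barcode ran over 9 classes from 0.109% in type II-like to 0.201% in B cell-like barcodes. In air at pnd7 it ran over 12 classes from 0.114% in type II-like to 12.1% in endothelial-like barcodes, with type I-like (8.99%), mast or basophil-like (8.69%) and ciliated-like (10.4%) barcodes also high, each of these with a median of at most 2366 counts. Classes there pooled unlike clusters, since 1 endothelial-like cluster of 199 barcodes had a median of 15.9%, while the others, of 115, 18 and 17 barcodes, had 0.176%, 0.204% and 0.140%. Of the macrophage-like clusters, 1 of 84 barcodes had a median of 12.2%, and the others, of 84 and 24, had 0.151% and 0.132%. At pnd60 the median was 0 in each of 9 classes in air and 11 in hyperoxia. At most 10% globin, the share of a whole class in hyperoxia at pnd7 ran only from 0.112% to 0.202%. Epithelial, endothelial, mesenchymal and immune classes of at least 50 barcodes had like low shares in that library. With all barcodes kept, a secretory-like cluster of 14 there had a median of 10.7%, and an unnamed cluster of 50 had 2.76%. The other clusters of that library had medians from 0.109% to 0.330%, the last in 42 unnamed barcodes, of which 14 were over 10%. No expression is read from such shares, since free RNA in a droplet also gives counts, and its part was not tested. In air at pnd7 the shares were not alike, at 0.119% to 3.27%, and the high ones went with low depth.

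The chain balance of the globin in these classes was not that of the globin-dominated barcodes. At most 10% globin, beta-globin was 2.21 times alpha-globin (from 2.18 to 2.25) over all filtered barcodes in air at pnd7 and 2.61 times (from 2.54 to 2.68) in hyperoxia at pnd7, above the 2.07 and 2.06 of globin-dominated barcodes. At pnd60 it was 0.894 times (from 0.837 to 0.953) in air and 0.633 times (from 0.569 to 0.703) in hyperoxia, below 0.981 and 0.991. The low globin of other barcodes thus stood further apart between the ages. The value for air at pnd7 includes 294 barcodes with over 1% and up to 10% globin. Over the classes the ratio ran from 1.74 to 3.39 in air and from 1.85 to 3.55 in hyperoxia at pnd7, and from 0.528 to 1.19 in air at pnd60. In hyperoxia at pnd60 some classes held too few globin counts for a ratio, such as 5 in neutrophil-like barcodes.

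Between classes, globin was lower in type II-like than in endothelial-like barcodes by a log2 ratio of -1.26 in air at pnd7, -1.38 in hyperoxia at pnd7, -0.66 in air at pnd60 and -5.87 in hyperoxia at pnd60. Without barcodes over 10% globin these ratios became -1.03, -0.09, 0.11 and -0.27. At pnd60, 1 of 793 endothelial-like barcodes in air and 2 of 832 in hyperoxia had over 10% globin. In air at pnd7 such barcodes were many, at 187 of 199 in 1 endothelial-like cluster and 0 in the other 3, against 6 of 182 type II-like barcodes.

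Bpgm alone among the 6 genes was found apart from globin. In filtered barcodes with at most 10% globin it stood at 38.9 CPM in air and 39.2 in hyperoxia at pnd7, 24.9 and 24.0 at pnd60, and 6.20 in the sorted cells. Alas2 in the same barcodes went with globin, at 11.5, 6.18, 1.09, 0.121 and 0 CPM. Type II-like barcodes, alveolar epithelial cells that make surfactant, held 157 counts of Bpgm beside 3035 of globin in air at pnd7, which is 517 per 10000 globin counts against 14.7 in globin-dominated barcodes of the same library. In hyperoxia at pnd60 they held 131 counts of Bpgm beside 100 of globin and 0 of Alas2, which allows up to 3 counts.

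Bpgm levels differed between classes beyond counting error. Type II-like barcodes stood at 61.8 CPM (from 52.5 to 72.3) in air at pnd7, 58.3 (from 49.6 to 68.0) in hyperoxia at pnd7, 41.2 (from 34.3 to 49.0) in air at pnd60 and 38.8 (from 32.4 to 46.0) in hyperoxia at pnd60. Endothelial-like barcodes stood at 56.9, 61.7, 23.6 and 26.2 CPM. B cell-like barcodes were lower, at 9.14, 15.6, 14.0 and 19.4, and so were macrophage-like barcodes, at 19.1, 14.6, 12.3 and 13.8. The intervals of type II-like barcodes did not overlap those of B cell-like or macrophage-like barcodes in any of the 4 libraries. Cells of 1 library are not replicates, so the order of the classes is a description of these libraries.

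**Figure D4:**
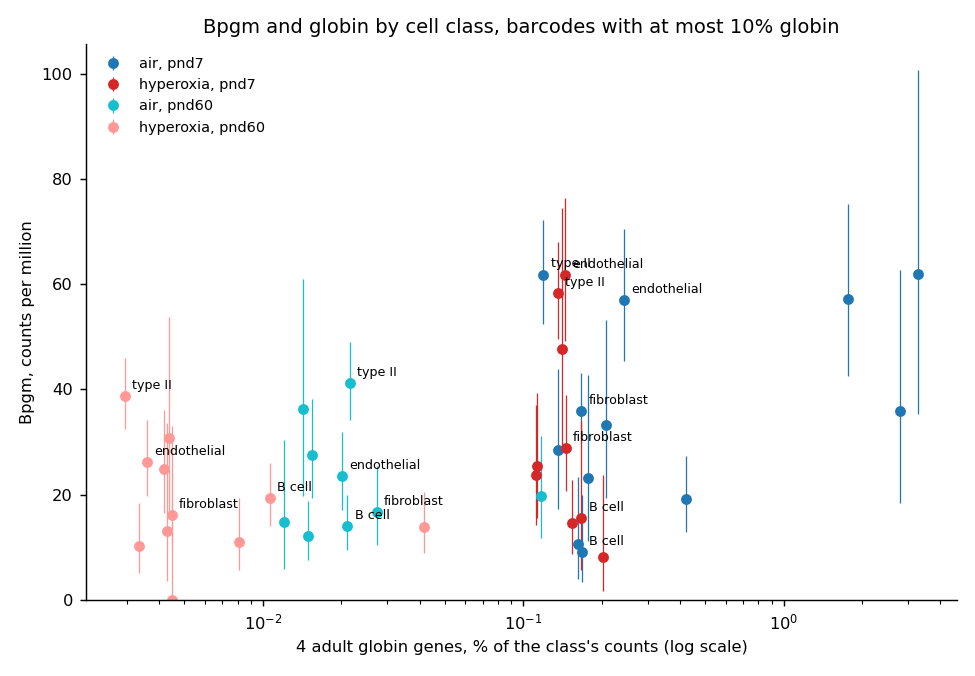
Bpgm in CPM against the share of globin (log scale) for each named class of at least 50 filtered barcodes, leaving out barcodes with over 10% globin, with 1 point for each class and library and exact Poisson intervals at 95%. Type II-like points stay at 38.8 or higher while globin runs from 0.00296% to 0.136%, and B cell-like points stay at 19.4 or lower.

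The other genes of the red cell were read from a list of 68 symbols that includes the members, of which 65 were among the features. In all barcodes, 0 of the 43 other genes with at least 100 counts differed by 2-fold between hyperoxia and air at pnd7, where the median was 0.01 against 0.00 for all genes. At pnd60, 2 of 35 were lower after hyperoxia and 0 were higher, against 0.206% and 0.411% of all genes. For pnd60 against pnd7, 17 of 42 were lower and 11 higher in air, and 17 of 43 were lower and 9 higher in hyperoxia. Of all genes, 4.77% were lower and 42.7% higher in air, and 5.01% were lower and 46.1% higher in hyperoxia. The genes lower at pnd60 in both include Slc4a1, Fech and Ube2l6, and those higher in both include Bcl11a, Steap3 and Tal1, which other lung and immune cells also express. In the sorted cells 25 of 39 were lower and 2 higher, Alas1 at 2.34 and Slc11a2 at 1.21, against 26.2% and 18.2% of all genes.

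In globin-dominated barcodes the heme genes after Alas2 were present at lower counts. Fech, which inserts iron into protoporphyrin to form heme, had 3.69 and 3.41 counts per 10000 globin counts at pnd7 and 8.76 and 7.19 at pnd60. Urod, an enzyme of a middle step, had 0.209 in air and 0.261 in hyperoxia at pnd7, and 5 and 7 counts at pnd60. Alas1, the form of the first enzyme used outside red cells, had 1, 5, 0 and 0 counts in these barcodes of the 4 unsorted libraries, although it had between 1055 and 1650 in all barcodes. Of the iron genes, Slc25a37, the mitochondrial iron importer, had 2.30 and 1.88 at pnd7 and 10.9 and 8.81 at pnd60. Tfrc, the transferrin receptor, had 0.054 in air and 0.145 in hyperoxia at pnd7. As a share of the counts other than globin, Fech was lower at pnd60. It had 9249 and 8370 CPM of these counts at pnd7 against 7921 and 7381 at pnd60.

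Membrane and maturation genes were also counted in these barcodes. Slc4a1, the band 3 anion exchanger, had 1.25 and 1.12 counts per 10000 globin counts at pnd7 and 2.33 and 2.77 at pnd60, and Epb41, a protein of the membrane skeleton, 4.46 and 3.69 at pnd7 and 10.1 and 7.70 at pnd60. Bnip3l, which clears mitochondria from reticulocytes, had 6.18, 5.85, 11.2 and 8.35 in the 4 unsorted libraries. Globin-dominated barcodes held 92.2% and 95.1% of the Slc4a1 counts, 81.7% and 83.3% of Epb41 and 56.8% and 58.4% of Bnip3l at pnd7, but 68.4% and 36.8%, 29.2% and 10.51%, and 12.3% and 3.59% at pnd60. Most counts of Epb41 and Bnip3l thus lay outside them at pnd60. Tent5c and Ube2l6, genes of late red cell maturation, had 5.31 and 6.15 in air at pnd7 and 14.0 and 9.77 in air at pnd60. Epb42 and Rhd, further membrane genes, had at most 0.126 at pnd7. Of the erythroid transcription factors, Gata1 had 7, 11, 0 and 1 counts in these barcodes and Klf1 9, 9, 1 and 0, beside 11171446 globin counts in air at pnd7. Lmo2 had 301 and 285 at pnd7.

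Enzymes of the red cell cytoplasm did not share a direction between the ages relative to globin. Prdx2, a peroxiredoxin, had 5.05 and 5.12 counts per 10000 globin counts at pnd7 and 2.03 and 1.94 at pnd60, and Blvrb, a flavin reductase, 1.37 and 1.51 against 0.657 and 0.922. Car2, a carbonic anhydrase, had 2.25 and 2.37 at pnd7 and 1.73 and 1.71 at pnd60. Most of the Prdx2 and Car2 counts lay outside globin-dominated barcodes in each unsorted library. Cat, which encodes catalase, was higher at pnd60, with 0.673 and 0.528 at pnd7 against 3.48 and 1.94, and at most 18.2% of its counts lay in these barcodes. Mkrn1, Isg20, Ube2o and Xpo7 were also found both inside and outside. Mitochondrial ribosomal RNA took a median of 0.053%, 0.042%, 0.222% and 0.161% of the counts of globin-dominated barcodes.

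**Figure D5:**
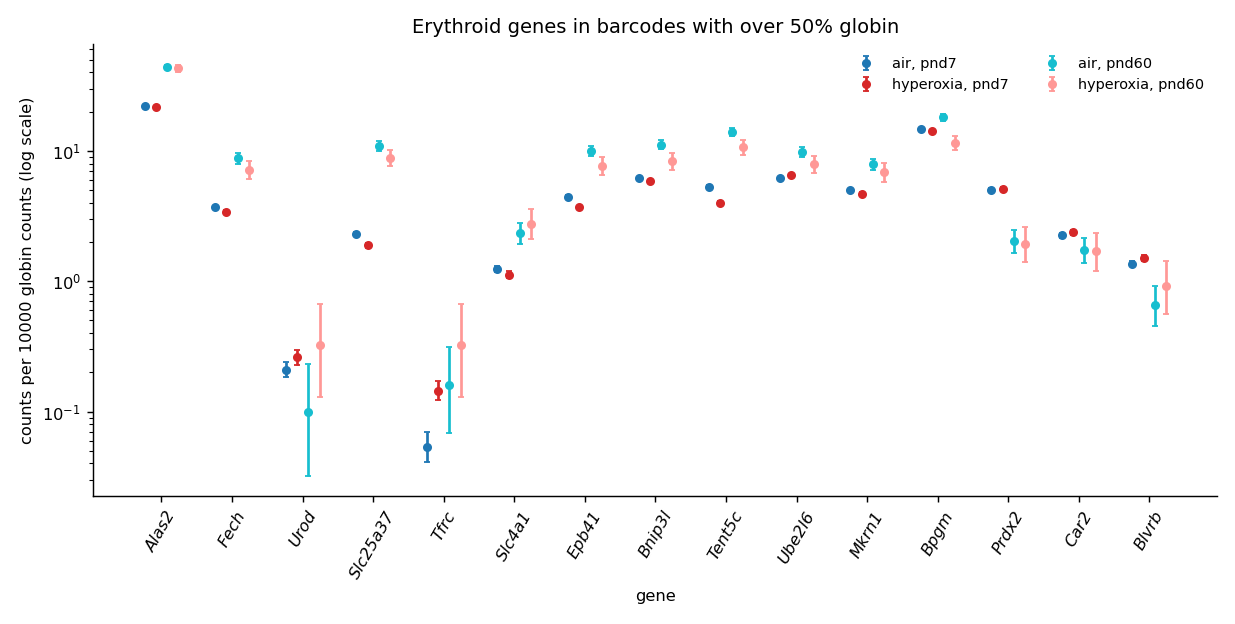
Counts per 10000 globin counts (log scale) of 15 erythroid genes in globin-dominated barcodes of the 4 unsorted libraries, with exact Poisson intervals at 95%. Per globin count, Alas2, Fech, Slc25a37 and Epb41 stand higher at pnd60 than at pnd7, and Prdx2 stands lower. Globin itself took a smaller share of these barcodes at pnd60.

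Outside the list, the genes most concentrated in globin-dominated barcodes were Rec114, Rsad2, Fam220a, Cdr2 and Isca1. They were ranked over 105 genes with at least 20 counts in these barcodes of each unsorted library, by the lowest of 4 log2 ratios to the other barcodes, with globin left out of the totals. Rec114, known as a gene of meiotic recombination, had a lowest ratio of 9.05 and 1134 counts in these barcodes in air at pnd7. Rsad2, known as an interferon-induced gene, had 8.35 and 2093 counts, and Fam220a 7.56 and 2824. Isca1, which takes part in the assembly of iron-sulfur clusters, had 6.53 and 3467.

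Across 41 profiles of a class in a library, the pattern of Hbb-bs was shared most by the other members. Pearson's r of log2(CPM + 1) with Hbb-bs was 0.99 for Hba-a1, 0.98 for Hbb-bt, 0.97 for Hba-a2, 0.97 for Alas2 and 0.74 for Bpgm. Among genes outside the list the highest were Glrx5 (0.83), LOC102636299 (0.81), Slc24a5 (0.80), Pdcd5, Csnk2a2, Mrpl34, Zcchc17, Mrpl41, Grpel1 and Erh, the last at 0.78. Glrx5 takes part in iron-sulfur cluster assembly. Alas1, of the list, reached 0.07. The profiles share libraries, depth and age, and the values are a description.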

How the data were processed

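Lung cells in 5 libraries were profiled with the 10x Chromium 3′ kit. The authors deposited unnormalized counts of molecules per gene and barcode, which the submitters' processing notes credit to Cell Ranger (3.1.0 in the file headers) with the mm10 build and Seurat 3.2.1. The annotation is not given in the sources used here. Ahsp and Hbb-bh0 were not matched among the features. Fam46c, an earlier symbol of Tent5c, was not matched either, while Tent5c was.

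Counts were summed over barcodes, without a mitochondrial limit (2 ribosomal RNAs only), and log2 ratios with conditional binomial intervals were computed in Python 3.11.15 with scanpy 1.11.5, scipy 1.17.1, pandas 2.3.3 and numpy 2.4.6. Intervals were tested on data simulated with the counting error they assume. That test does not cover spread between barcodes or mice. Genes with at least 100 counts in a pair of libraries entered comparisons. Clusters used 2000 genes, 30 components, 15 neighbours and Leiden resolution 1. A name needed at least 3 markers raised 2-fold over the other barcodes and the most markers among the 10 leading genes. With no marker among those 10, clusters not of low depth needed 5 raised markers. Their share raised also had to be 2 times that of the next class. Named genes are mainly the members, list genes with at least 100 counts in globin-dominated barcodes, and the 10 and 5 genes of the rankings. Some list genes are named outside this rule, such as Alas1, Gata1, Klf1, Bcl11a, Steap3, Tal1, Slc11a2 and the embryonic globins. Scrublet marked 1, 3, 15, 138 and 156 filtered barcodes, and doublets were otherwise kept. There were 67 other settings, and leaving out barcodes over 10% globin was chosen after seeing the data. The members and lists were chosen with earlier results of these data known. Some genes of the erythroid list are not reported here.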

Additional observations from a re-analysis of the deposited data

Results flagged for a closer look

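Between the exposures, 2 genes of the erythroid list among those reported here stood on opposite sides of 0 at the 2 ages with both intervals clear of it. The share of all genes that do so is not given here, so the 2 are a description and not a result about the list. The differences between the ages were not tested, with 1 library per condition. Tfrc in all barcodes had a log2 ratio of hyperoxia to air of 0.32 at pnd7 and -0.16 at pnd60, and in filtered barcodes 0.29 and -0.17. Globin-dominated barcodes held 6.30% and 13.5% of its counts in air and hyperoxia at pnd7, and 0.590% and 0.502% at pnd60. Mkrn1 in filtered barcodes had -0.50 at pnd7 and 0.16 at pnd60.

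Counts also lay in Hbb-b1 and Hbb-b2, features named for further copies of beta-globin that no comparison used and that exceeded 3 counts. Hbb-b1 had 728 counts in air and 569 in hyperoxia at pnd7, 14 in the sorted cells, and 51 in air and 26 in hyperoxia at pnd60. Hbb-b2 had 290, 245, 6 and 5 in the first 4 of these libraries. Hbb-b1 came to between 0.00576% and 0.0272% of the globin counts of a library.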

How the results depend on the processing

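The direction of each globin ratio held under every alternative except 2. In all barcodes at pnd7, the mean of per-barcode shares put hyperoxia above air, at 0.19 against -0.06, and globin was higher in type II-like than in endothelial-like barcodes in air at pnd60 without barcodes over 10% globin, at 0.11 against -0.66. The causes were not tested. No paired analysis was possible because every group held a lone library.

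Values are log2 ratios in the order hyperoxia to air at pnd7 and at pnd60, pnd60 to pnd7 in air and in hyperoxia, and sorted to unsorted. In filtered barcodes, taking over 500 genes gave -0.47, -1.40, -3.66, -4.59 and -11.03. Leaving out barcodes over 50% globin gave -1.55, -0.68, -4.26, -3.39 and -9.45, and those over 10% gave -1.29, -1.49, -4.17, -4.38 and -7.16. The mean of per-barcode shares gave -1.64, -1.26, -5.02, -4.64 and -10.03, and thinning to 1000 counts -1.65, -1.28, -5.00, -4.63 and -9.61. Leaving out doublets gave -0.65, -1.72, -3.42 and -4.49 in the first 4. Dividing by counts other than globin gave -0.62 at pnd7, -3.56 and -4.27 between the ages, and median-ratio scaling gave -0.59, -3.74, -4.53 and, for the sorted cells, -10.17. A mitochondrial limit of 5%, taken on 2 ribosomal RNAs only, left all 5 within counting error. It left hyperoxia to air at pnd60 unchanged at -1.33, and it is not the study's limit on all mitochondrial reads.

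In all barcodes, dividing by counts other than globin gave -0.10, -1.42, -4.23, -5.56 and -6.54, median-ratio scaling -0.063, -1.42, -4.43, -5.82 and -5.93, and the mean of per-barcode shares -1.26, -2.91, -4.36 and -5.19 in the last 4.

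For type II-like against endothelial-like barcodes, leaving out those over 10% globin gave -1.03 in air and -0.093 in hyperoxia at pnd7 and -0.27 in hyperoxia at pnd60. Medians of per-barcode shares gave -6.73 and -0.69 at pnd7, and no value at pnd60, where the medians were 0. A finer clustering gave -1.22 in air at pnd7 and -0.82 in air at pnd60. Depth limits the sorted values, which rest on 104 filtered globin counts.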

Other observations

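In the air library at pnd7, a cluster of 187 filtered barcodes that was formed without the erythroid genes had no name. Its 10 leading genes held Rsad2, Rec114 and Fam220a, which were also concentrated in globin-dominated barcodes, beside Ccl5, Scgb1a1, Gzma and Lyz1, which belong to immune and epithelial cells. Globin was over 10% in 178 of the 187, and 18.5% of the counts of the cluster. In an endothelial-like cluster of 199 barcodes led by Mmrn1, Prox1 and Flt4, genes of lymphatic vessels, 187 were over 10% globin, with a median of 1671 counts.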
